A study of Homo sapiens with 2 samples.

Results

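The type I interferon-stimulated genes are the genes that cells switch on when interferon alpha or beta reaches them. Of these, 45 textbook targets were taken by name and followed in the deposited table of 58698 genes. All 45 were found there, each once. They were chosen with earlier results of these data known. Total RNA had been sequenced from MIA PaCa-2, an established human pancreatic cancer cell line, as 2 libraries. The control, sgGFP, is labelled wild type and is named for a guide against GFP, a jellyfish gene that human cells lack. The other, sgTPST2, is labelled a knockdown of TPST2, which encodes a Golgi enzyme that adds sulfate to tyrosines of secreted and membrane proteins. Both come from the same parental line, and the labels do not say whether either was a pool or 1 clone. The targeted gene TPST2 was at 8.46 FPKM in sgGFP and 1.92 in sgTPST2, a ratio of 0.226 (0.178 to 0.286 by counting error), lower in the library labelled a knockdown. With 1 library per group there was no test and no difference has a replicate check: whether any of them is larger than the spread between cultures was not measured.

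Type I interferons bind the receptor pair IFNAR1 and IFNAR2. The kinases JAK1 and TYK2 then activate STAT2, which acts with IRF9 in a complex that binds a short element, the interferon-stimulated response element, in the promoters of the target genes. Interferon gamma uses another receptor and acts mostly through a different element (GAS). The products of the target genes hinder viruses at many steps: they sense viral RNA, block its translation or degrade it, tag proteins with the small modifier ISG15, or strengthen the signal itself. Most cells keep a low level of these RNAs without added interferon.

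Of the 45 genes, 33 reached 1 FPKM (fragments per kilobase at a common depth, a measure by which genes of unequal length can be compared) in at least 1 library. Of these 33, 16 were higher in sgTPST2 by 1.5-fold or more, and 0 were lower by that much. Among all 13420 genes at 1 FPKM or more, 4.41% were 1.5-fold higher and 6.94% 1.5-fold lower, and among 11048 protein-coding genes 3.16% were higher. Fold counts and differences are on the scale log2((sgTPST2 + 1)/(sgGFP + 1)), which understates changes of genes near 1 FPKM. On it the 33 genes had a median difference of 0.58, with a middle range from 0.30 to 0.90, against a median of 0.00 and a middle range from -0.17 to 0.17 for all genes. Above the control at all stood 30 of the 33, against 50.0% of all genes. At least 2-fold higher were 5 of them (IFIT3, OASL, LGALS3BP, IFIT2 and IFIT1), against 1.61% of all genes. The 45 genes were chosen with earlier results of these data known, so these counts are no independent support for a difference.

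A filter that a gene can pass through its higher value alone favours genes that differ. Of the 33, 29 reached 1 FPKM in the control itself, and 4 (IFI44, HERC5, BST2 and MX1) did so in sgTPST2 only. Over those 29, 14 were 1.5-fold higher, where 2.87% of all 12858 genes at 1 FPKM in the control were, and the median stayed at 0.58. The pattern was not limited to weakly expressed genes. Of the 16 genes with a control level from 5 to below 20 FPKM, 9 were 1.5-fold higher, against 2.77% of 4402 genes of that range. Below 5 FPKM it was 6 of 13 against 9.22% of 4232, and from 20 FPKM 1 of 4 against 1.67% of 4786.

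**Figure D1:**
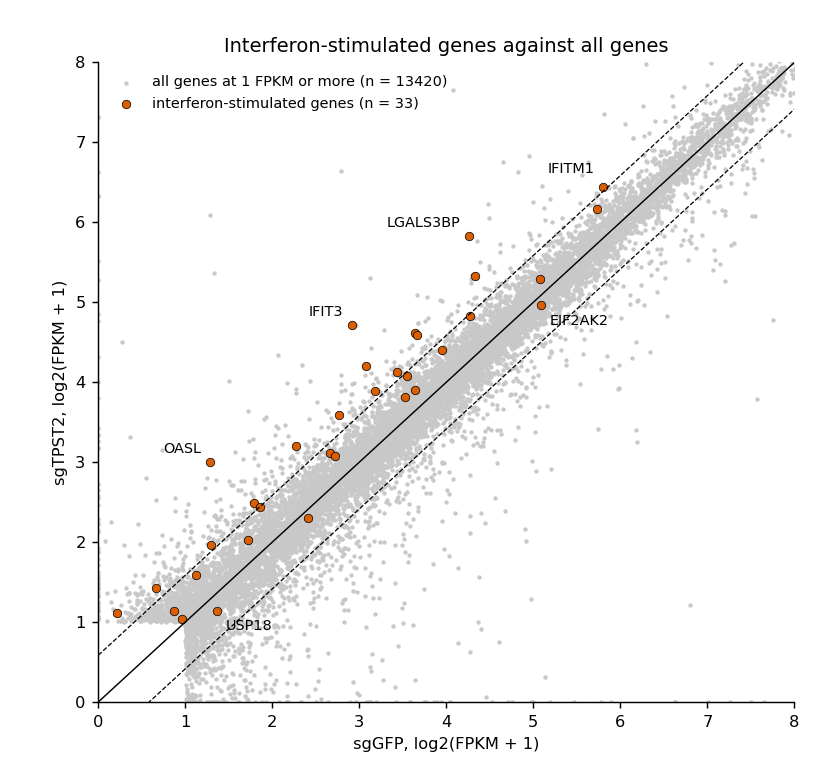
Each point is a gene, with its level in the control on the horizontal axis and in sgTPST2 on the vertical axis, both as log2(FPKM + 1), up to the range that holds the interferon-stimulated genes. The solid line marks equal levels and the dashed lines 1.5-fold; of the 33 interferon-stimulated genes (orange), 16 lie above the upper line and 0 below the lower one.

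The promoters of 5 of these genes are shown with matches to the core of the element through which interferon signalling is known to act. They were picked by difference and level, not by a match. They are those of IFIT3 and LGALS3BP, from the 4 largest differences among genes at 5 FPKM or more, of IFIT1 and ISG15, the next in size with a sequence, and, for contrast, of EIF2AK2, a strongly expressed gene within 1.2-fold. Each runs 5′ to 3′ on the gene's strand from 250 bases before to 50 after the start site (RefSeq, GRCh38.p14). Capitals mark every match, on either strand, of the core of the response element: GAAA, any 2 bases, GAAA. Matches may overlap, as both do in ISG15.
IFIT3 promoter, chr10:89327747-89328046, plus strand: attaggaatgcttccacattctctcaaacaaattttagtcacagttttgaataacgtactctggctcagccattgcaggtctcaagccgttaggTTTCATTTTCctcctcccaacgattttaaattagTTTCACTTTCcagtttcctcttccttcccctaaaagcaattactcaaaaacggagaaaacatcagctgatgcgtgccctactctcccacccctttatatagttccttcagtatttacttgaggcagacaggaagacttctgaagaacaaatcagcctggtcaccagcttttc
LGALS3BP promoter, chr17:78979874-78980173, minus strand: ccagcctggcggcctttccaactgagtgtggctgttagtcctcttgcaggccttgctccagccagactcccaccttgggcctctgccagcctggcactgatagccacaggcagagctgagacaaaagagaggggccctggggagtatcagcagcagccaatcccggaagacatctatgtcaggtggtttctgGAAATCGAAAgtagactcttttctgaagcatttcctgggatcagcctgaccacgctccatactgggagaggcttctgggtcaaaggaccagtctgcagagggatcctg
IFIT1 promoter, chr10:89392373-89392672, plus strand: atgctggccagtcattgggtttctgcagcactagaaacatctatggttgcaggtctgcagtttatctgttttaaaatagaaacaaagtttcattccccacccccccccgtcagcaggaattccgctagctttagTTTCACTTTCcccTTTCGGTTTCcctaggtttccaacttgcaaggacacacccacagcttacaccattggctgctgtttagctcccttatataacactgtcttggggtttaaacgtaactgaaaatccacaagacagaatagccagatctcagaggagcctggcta
ISG15 promoter, chr1:1013247-1013546, plus strand: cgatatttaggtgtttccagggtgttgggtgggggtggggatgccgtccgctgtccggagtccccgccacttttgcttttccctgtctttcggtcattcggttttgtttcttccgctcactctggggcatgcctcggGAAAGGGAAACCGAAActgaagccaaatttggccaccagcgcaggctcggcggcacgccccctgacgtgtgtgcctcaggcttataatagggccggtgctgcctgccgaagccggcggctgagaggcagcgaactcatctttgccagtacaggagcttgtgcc
EIF2AK2 promoter, chr2:37156931-37157230, minus strand: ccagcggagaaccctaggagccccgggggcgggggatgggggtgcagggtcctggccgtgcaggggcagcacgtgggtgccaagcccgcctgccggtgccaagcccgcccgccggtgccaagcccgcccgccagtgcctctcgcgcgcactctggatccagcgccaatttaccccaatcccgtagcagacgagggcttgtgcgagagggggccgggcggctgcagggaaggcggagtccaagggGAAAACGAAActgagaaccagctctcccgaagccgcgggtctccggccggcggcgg

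The core match lay in the promoters of 25 of the 37 genes with a sequence in the table (67.6%), 15 of them with more than 1 match, and in 3.57% of all 35116 windows of that length (3.17% of 22198 from protein-coding genes). The GAS-type motif TTCNNNGAA, which reads the same on both strands and may overlap the first, lay in 10 of the 37 (27.0%) and in 7.66% of all windows. A match is a stretch of letters and not a measured binding site. Among genes at 1 FPKM or more, 11 of 21 genes with the core match were 1.5-fold higher (median 0.63), and 3 of 7 without it were (median 0.58). EIF2AK2 has a match that starts at position -6 and did not differ by 1.5-fold, while UBE2L6 and DDX58 had no match in this window and were higher. The other 8 genes (OASL, IFIT2, OAS2, MX2, TRIM22, IFITM2, IRF7 and USP18) were not analysed for sequence.

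The IFIT proteins bind foreign RNA and block its translation. IFIT3 (chromosome 10, 89327894 to 89340971, GRCh38) stood at 6.56 FPKM in sgGFP and 25.2 in sgTPST2, the largest difference of the 33 (1.79). Its level ratio was 3.84, with a 95% counting interval from 3.37 to 4.40. IFIT2 (89283694 to 89309276) was at 7.41 and 17.5 FPKM, a ratio of 2.36 (2.07 to 2.69). IFIT1 (89392546 to 89406486) was at 19.03 and 39.2 FPKM, a ratio of 2.06 (1.90 to 2.24). IFIT5, which lies just beyond them, had the smallest difference of the family, at 10.7 and 15.9 FPKM (difference 0.53). So 3 of the 4 IFIT genes were 1.5-fold higher. These counting intervals treat each gene as 1 kb of transcript, are exact, and cover counting error only, not differences between cultures.

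The IFIT values carry a limit of their own. IFIT1, IFIT2 and IFIT3 lie inside the span of LIPA, a lysosomal lipase gene on the opposite strand, which was at 152 and 186 FPKM (difference 0.29). IFIT2 also shares 356 exon bases on its own strand with the RNA gene AL353751.1, listed at 448 and 599 FPKM. The library kit marks strand, per the labels, but whether the counting used it is not stated, and how many fragments were shared was not tested. In the authors' deposited table the 3 genes are listed under 1 locus with LIPA and have p-values from 0.330 to 0.370, while IFIT5, outside it, has p = 0.133 with a smaller difference.

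The OAS enzymes make 2-5A, the signal that activates the RNA-degrading enzyme RNase L, and OASL is a relative without that activity that supports RNA sensing. OASL (chromosome 12, 121019111 to 121039242) stood at 1.44 FPKM in sgGFP and 6.98 in sgTPST2. This ratio of 4.84 (3.65 to 6.43) was the largest among genes at 1 FPKM or more in the control. The 3 enzymes, which sit together elsewhere on the chromosome, were weakly expressed in both libraries. OAS3 was at 1.17 and 2.01 FPKM (difference 0.47), OAS2 at 0.143 and 0.603, and OAS1 at 0.297 and 0.418. None of them passed 1.5-fold on the scale used, and OAS1 and OAS2 were below 1 FPKM in both libraries.

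Of the conjugation genes of ISG15 in the list, the modifier, its conjugating enzyme and a ligase were 1.5-fold higher, and the protease that removes it was not. ISG15 itself (chromosome 1, 1001138 to 1014540), a ubiquitin-like modifier, stood at 11.4 FPKM in sgGFP and 23.5 in sgTPST2, a ratio of 2.05 (1.85 to 2.29). UBE2L6, the conjugating enzyme that carries it, was at 11.6 and 23.0 FPKM (1.98, 1.78 to 2.20). HERC5, the main ligase, was at 0.589 and 1.68 FPKM (2.86, 1.80 to 4.65) and reached 1 FPKM in sgTPST2 only. The activating enzyme UBA7, named after its values were seen, was at 1.39 and 3.59 FPKM and was the 1 of 3 further conjugation genes that was 1.5-fold higher; TRIM25 was at 20.7 and 17.7 FPKM and ARIH1 at 31.0 and 32.0. HERC6, a relative of HERC5, was at 2.29 and 3.06 FPKM, a ratio of 1.34 (1.03 to 1.75). USP18, the protease that takes ISG15 off and also dampens receptor signalling, was the lowest of the 33 genes by difference (-0.22), at 1.57 and 1.21 FPKM. Its ratio of 0.770 had an interval from 0.533 to 1.12, which includes 1. That interval assumes 1 kb of transcript, not the length of USP18 itself.

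All 3 RNA sensors of the list were 1.5-fold higher. DDX58, which encodes RIG-I, stood at 3.85 FPKM in sgGFP and 8.16 in sgTPST2, a ratio of 2.12 (1.76 to 2.56). IFIH1, which encodes the related sensor MDA5, was at 2.46 and 4.63 FPKM (1.88, 1.49 to 2.41). DDX60, a helicase linked to RIG-I signalling, was at 1.46 and 2.89 FPKM (1.99, 1.47 to 2.75). The counting intervals of the libraries were apart for each of the 3, which by itself says little: among all 13420 genes they were apart and higher in sgTPST2 for 20.6% and apart and lower for 20.9%.

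Neither STAT2 nor IRF9, subunits of the transcription complex, passed 1.5-fold on the scale used. STAT2 was at 14.5 FPKM in sgGFP and 20.2 in sgTPST2 (difference 0.45). IRF9 was at 2.63 and 4.43 FPKM (0.58), just short of the 1.5-fold mark that IFITM1 just passed (0.63). IRF9 passed it with a pseudocount of 0.1 (0.73) and with both libraries scaled to the same sum or upper quartile (0.59 each), and its plain ratio was 1.68 (1.33 to 2.13). IRF7, the factor that amplifies interferon production in immune cells, is listed at 0 in both libraries. IRF9 shares 1838 exon bases with the readthrough gene AL136295.5 on its strand, which was close to 0 (0 and 0.0172 FPKM).

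PARP14, PARP9 and DTX3L encode ADP-ribosyl transferases and a ubiquitin ligase that partners PARP9, and lie near each other on chromosome 3. PARP14 was at 5.80 FPKM in sgGFP and 11.02 in sgTPST2 (difference 0.82), and DTX3L at 9.77 and 16.6 (0.70). PARP9, which starts head to head with DTX3L and shares 217 exon bases with it on the opposite strand, was at 5.60 and 7.435 FPKM (0.35). Of this trio, PARP14 and DTX3L were 1.5-fold higher and PARP9 was not.

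**Figure D2:**
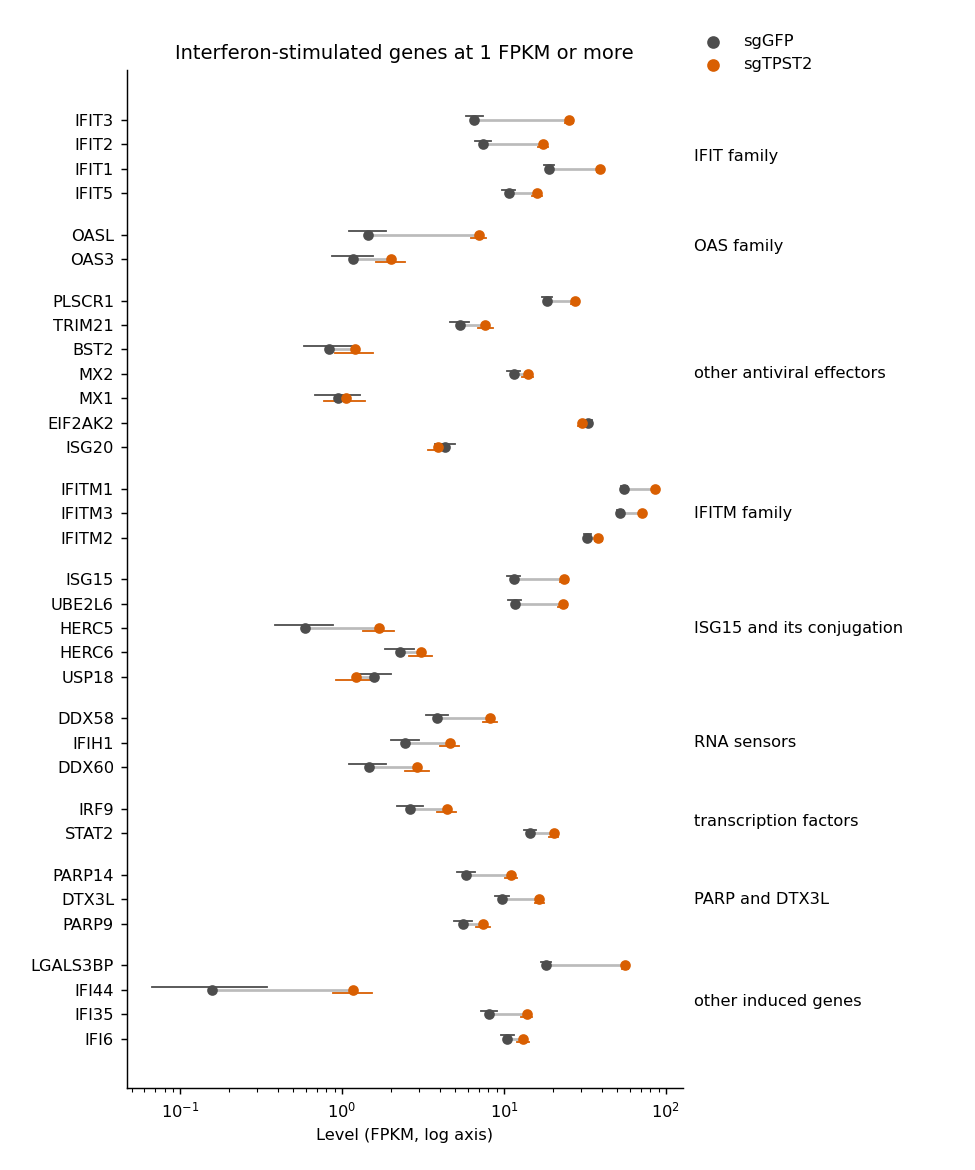
Each row is 1 of the 33 genes at 1 FPKM or more, grouped by role, with its level in FPKM on a log axis in the control (grey) and in sgTPST2 (orange). Thin bars are 95% Poisson counting intervals for 1 kb of transcript; they overlap in 6 genes, and in the other 27 the orange point is to the right, against intervals apart and higher for 20.6% of all genes and apart and lower for 20.9%.

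The IFITM proteins, which hold back viruses at the membrane of the entering vesicle, include the 2 genes of the highest level, IFITM1 and IFITM3. IFITM1 stood at 54.9 FPKM in sgGFP and 85.7 in sgTPST2 (difference 0.63), IFITM3 at 52.3 and 71.1 (0.44) and IFITM2 at 32.7 and 38.2 (0.22). Only IFITM1 passed 1.5-fold. The 3 genes lie next to each other on chromosome 11 and resemble each other in sequence, and IFITM1 and IFITM2 share 351 annotated exon bases, so fragments may be split between them with error.

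No gene of the other antiviral effectors passed the 1.5-fold mark: of 12, 7 reached 1 FPKM and 0 were 1.5-fold higher or lower. PLSCR1, a scramblase that blocks viral entry, was at 18.3 FPKM in sgGFP and 27.3 in sgTPST2 (difference 0.55). TRIM21, an antibody receptor in the cytosol, was at 5.32 and 7.66 FPKM (0.45). The GTPases MX2 and MX1, which trap incoming viral particles, were at 11.5 and 14.0 FPKM (0.26) and at 0.943 and 1.049 FPKM (0.08). BST2, which tethers budding virus, was at 0.825 and 1.197 FPKM (0.27). EIF2AK2, the RNA-activated kinase PKR that stops translation, was at 32.9 and 30.4 FPKM (-0.11), and the exonuclease gene ISG20 at 4.33 and 3.92 (-0.11). With USP18, these are the 3 genes of the 33 that were lower at all, and the counting intervals of each overlapped between the libraries. The ratio of EIF2AK2 was 0.922, with an interval from 0.856 to 0.994 that lies just below 1, and that of ISG20 was 0.907 (0.736 to 1.12).

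LGALS3BP had the highest level of the remaining induced genes. It encodes a secreted, heavily glycosylated protein that binds galectins, and (chromosome 17, 78971238 to 78980109) was at 18.2 FPKM in sgGFP and 55.7 in sgTPST2, a ratio of 3.06 (2.83 to 3.32). IFI44 was at 0.156 and 1.17 FPKM (7.45, 3.19 to 18.3), IFI35 at 8.08 and 13.8 FPKM (difference 0.71), and the mitochondrial survival protein gene IFI6 at 10.5 and 13.1 FPKM (0.29). LGALS3BP, IFI44 and IFI35 were thus 1.5-fold higher, though IFI44 reached 1 FPKM in sgTPST2 only. The authors' deposited p-values and q-values also rest on 1 library per group, so they do not measure the spread between cultures. By the authors' own test, LGALS3BP was the 1 gene of the 45 at q of 0.05 or less: the authors' deposited table gives it q = 0.01255, the smallest q in that table, which other genes share. That table calls 0.0915% of the 18574 genes it tested as higher in sgTPST2 at that threshold, and tested 36 of the 45. For OASL the same authors' deposited table gives q = 0.177. An unadjusted p of 0.05 or less with a higher value in sgTPST2 stands there for 8 of the 36 genes, XAF1 among them, and for 0.883% of the 18574.

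The 12 genes below 1 FPKM in both libraries include classical targets. IFI27, IFI44L, EPSTI1, IRF7 and SAMD9L are listed at 0 in both. The other 7 were OAS1 and OAS2, given above, XAF1, TRIM22, RSAD2, CMPK2 and SAMD9. XAF1, a gene linked to cell death, was at 5.66e-06 FPKM in sgGFP and 0.265 in sgTPST2, and the antiviral enzyme RSAD2 (viperin) at 0.0426 and 0.207. TRIM22 is listed at 0 in sgGFP and was at 0.194 FPKM in the other library. CMPK2, the neighbour of RSAD2, was at 0.123 and 0.112 FPKM, and SAMD9 at 0.0628 and 0.00634. XAF1 shares 38.3% of its exon bases with a gene on the opposite strand, PRAL. On 1 kb of transcript, 3 fragments correspond to 0.0713 FPKM in sgGFP and 0.0626 in sgTPST2, taken here as the limit that a 0 allows (one-sided, counting error only), and a 0 in this kind of table can also be a failed estimate.

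Upstream of these genes, the interferons themselves were not detected. None of the 17 type I interferon genes, all on chromosome 9, was above 0 in either library, and of 22 interferon genes of all types only IFNL1 had a value, 0.0619 FPKM in sgTPST2. CDKN2A, CDKN2B and MTAP, neighbours of the interferon cluster that this line is known to lack, are also listed at 0 in both. RNA values do not tell a deleted gene from a silent one. Of 11 receptor and JAK-STAT genes, 10 reached 1 FPKM and 0 were 1.5-fold apart (median 0.13). The receptor chains IFNAR1 and IFNAR2 were at 8.38 and 9.22 FPKM and at 2.84 and 2.08 FPKM. JAK1 was at 24.4 and 26.8 FPKM, TYK2 at 62.9 and 79.6 and JAK2 at 3.51 and 4.35. STAT3, a factor shared with many cytokine receptors, was at 62.1 and 57.1 FPKM. The chains for interferon gamma, IFNGR1 and IFNGR2, were at 19.7 and 21.2 FPKM and at 63.6 and 51.3 FPKM. The shared lambda chain IL10RB was at 11.1 and 15.3 FPKM, and IFNLR1 stayed below 1 FPKM (0.311 and 0.183).

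Regulators and sensors came next. Of 9 interferon regulatory factors and their cofactors, 6 reached 1 FPKM and 1 was 1.5-fold higher: IRF1, which binds a similar element and acts in basal and gamma responses, at 18.1 and 31.0 FPKM (difference 0.75). IRF2, its antagonist, was at 4.94 and 6.73 FPKM, and the cofactors IRF2BP1 and IRF2BP2 at 12.3 and 13.9 FPKM and at 93.2 and 107 FPKM. Of 18 genes of nucleic acid sensing, 13 reached 1 FPKM, 3 were 1.5-fold higher and 0 lower (median 0.10). Among all 13420 genes at 1 FPKM or more, 4.41% were 1.5-fold higher and 6.94% lower. DHX58, which encodes the RIG-I relative LGP2, was at 1.87 and 5.53 FPKM (1.19), and the kinase IKBKE at 4.596 and 8.74 (0.80). The third was TMEM173, the gene of STING, named after its values were seen, at 0.406 and 1.60 FPKM. It reached 1 FPKM in sgTPST2 only. The adaptor MAVS was at 14.7 and 16.4 FPKM. Of 7 negative regulators, 6 reached 1 FPKM and 0 were 1.5-fold apart (median 0.08), with PTPN1 at 13.9 and 12.7 FPKM, PIAS1 at 8.79 and 10.04, PIAS4 at 23.2 and 21.3 and TRIM24 at 12.2 and 14.0. The largest difference among them was that of SOCS3 (0.52), named after its values were seen, at 2.50 and 4.01 FPKM.

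Interferon-response genes outside the list were counted too. Of 39 further stimulated genes, 31 reached 1 FPKM, 9 were 1.5-fold higher and 0 lower (median 0.33). Among them IFI30, a lysosomal reductase that serves antigen presentation, was at 21.5 and 42.9 FPKM. Of 17 genes weighted towards interferon gamma, 9 reached 1 FPKM and 7 of these were higher (median 1.199, the value of GBP3). GBP1 was at 0.457 and 5.97 FPKM, GBP2 at 2.44 and 8.77, PSMB9 at 4.70 and 12.5 and CD274 at 2.17 and 7.22. Not all genes of these lists rose. Of the gamma-weighted genes, CXCL9, CXCL11, IDO1 and GBP5 are listed at 0 in both libraries, and CXCL10 was at 0.0239 and 0.0420 FPKM. Some further stimulated genes were lower within 1.5-fold, most of all LY6E at 41.2 and 30.6 FPKM (-0.42). TRIM14 was at 5.42 and 4.08 (-0.34) and PNPT1 at 36.9 and 29.2 (-0.33). In these lists GBP1, GBP3 and APOL1 reached 1 FPKM in sgTPST2 only, and such a filter favours genes that differ. Among all 13420 genes at 1 FPKM or more, 4.41% were 1.5-fold higher. These lists share 6 genes with each other and were chosen with earlier results of these data known, so their counts are no independent support.

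**Figure D3:**
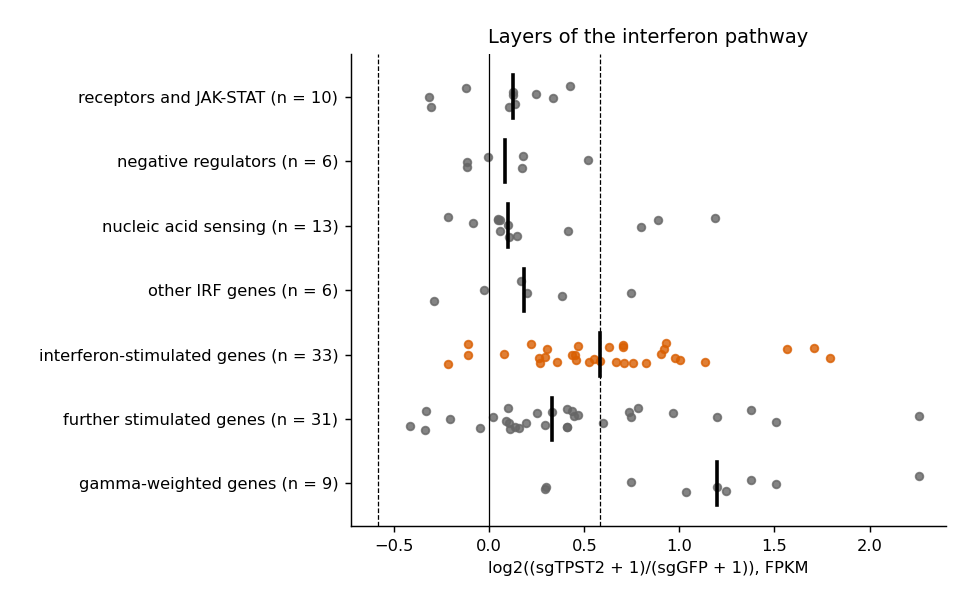
Each point is a gene at 1 FPKM or more, placed by its log2 difference (sgTPST2 over sgGFP, FPKM + 1); black bars are medians and dashed lines mark 1.5-fold. The 33 interferon-stimulated genes (orange) have a median of 0.58 and receptors and JAK-STAT genes one of 0.13. The genes weighted towards interferon gamma have one of 1.199, and GBP1 and GBP3 among them reached 1 FPKM in sgTPST2 only. Some genes are in more than 1 row.

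The 45 genes lie on 16 chromosomes and the 16 higher ones on 9. The 140 protein-coding genes of the short arm of chromosome 12 had a median difference of -0.86, so each gene was set beside the protein-coding genes that start within 5 Mb of it. The medians of these neighbours ran from -0.04 to 0.11 for the 16 higher genes, over 10 to 137 neighbours each, and from -0.10 to 0.11 for all 33. For the 4 IFIT genes the neighbours had a median of about 0.10. No interferon-stimulated gene of the list lies on the short arm of chromosome 12.

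**Figure D4:**
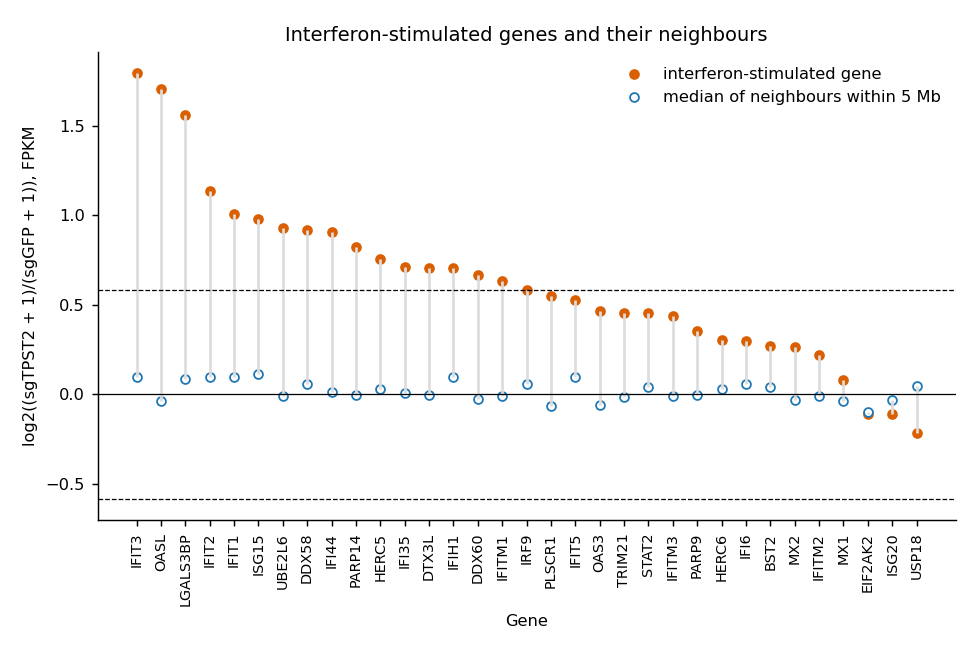
For each of the 33 genes at 1 FPKM or more, ordered by difference, the orange point is its own log2 difference (FPKM + 1) and the open blue point the median difference of the protein-coding genes within 5 Mb. The open points stay between -0.10 and 0.11, and the orange ones run from 1.79 for IFIT3 to -0.22 for USP18.

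Depth and cell identity were read from the same table. On 1 kb of transcript, 1 FPKM was worth about 42.0 fragments in sgGFP and 47.9 in sgTPST2. Of 7 epithelial markers 4 reached 1 FPKM and 3 of these were far lower. KRT8 was at 510 and 41.6 FPKM, KRT18 at 583 and 85.3, and KRT19 at 189 and 12.8. The other, MUC1, was at 0.828 and 1.71 FPKM, higher but within 1.5-fold on the scale used (difference 0.57). EPCAM is listed at 0 in both libraries and CDH1 at 0 in the control, and the keratin gene KRT7 was at 0.615 and 0.112 FPKM. The carcinoma identity comes from the name of the line in the labels, and the epithelial markers at 1 FPKM or more were mostly keratins. The 4 mesenchymal markers included 3 at 1 FPKM or more, with 0 apart by 1.5-fold. VIM was the highest of them, at 2661 and 3118 FPKM. The 8 leukocyte markers summed to 6.43 FPKM in sgGFP and 3.56 in sgTPST2, and 2 of them reached 1 FPKM. CD68 was at 3.32 and 1.51 FPKM, 1.5-fold lower, and CD14 at 2.67 and 1.76. CD3E, a T cell marker, is listed at 0 in both. Of 5 markers of plasmacytoid dendritic cells, a main source of interferon, 4 are listed at 0 in both, and TCF4 was at 0.0145 FPKM in sgGFP and is listed at 0 in sgTPST2. The 7 fibroblast markers summed to 47.6 and 15.6 FPKM and the 5 endothelial ones to 12.7 and 0.418, each with 2 genes at 1 FPKM or more, both of them lower. The 13 mitochondrially encoded protein genes had a median of -0.50, with 3 at least 1.5-fold lower, and the part of these markers and genes in the result was not tested. Fewer expressing cells and less RNA per cell cannot be told apart in bulk RNA.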

How the data were processed

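Total RNA of 1 library per group was compared. The submitters' processing notes name the aligner STAR, Cuffdiff and hg38. Versions, annotation release and strand setting are not stated there or in the labels. The deposited table names no unit for its 2 value columns. They were read as FPKM, the unit in which the authors' tool Cuffdiff reports levels, and the authors' scaling was kept. The p-value and q-value columns are the authors' own, per the file headers. Adding a pseudocount of 1 to both deposited values gives the authors' log2 fold change, and differences here use that scale. All 58698 gene identifiers and symbols match GENCODE release 29, whose coordinates (GRCh38) are given.

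Depth was read from whole-fragment steps in genes with 1 transcript over 1500 bp, after subtracting 180 bp: 91.5% of 837 low values in sgGFP and 93.0% of 776 in sgTPST2 lay within 0.1 of a whole number. Step and offset were fitted on these same values. Poisson intervals (95%) and exact binomial intervals of ratios assume 1 kb of transcript. Calls need 1 FPKM in either library and 1.5-fold. No test was possible with 1 library per group. The genes, their roles and all other lists were chosen with earlier results of these data known. All 45 genes are named. Outside them, the rule names TPST2, the receptor and JAK-STAT list (of which 1 gene is not reported here), and per other list up to 4 genes with the largest difference at 5 FPKM or more. Scripts were tested on simulated data (Python 3.11.15, pandas 2.3.3, scipy 1.17.1).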

Additional observations from a re-analysis of the deposited data

How the results depend on the processing

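No paired analysis was possible because each group is 1 library, which also leaves no replicate to drop in turn. The count of 16 genes at least 1.5-fold higher became 5 when 2-fold was asked for. In the other 40 comparisons with an alternative, which include those of TPST2, counts and medians moved by less than 1.5 times. For TPST2 only the rescalings were run, and its difference of -1.698 became -1.689 at most. The alternatives for counts and medians were a pseudocount of 0.1, no filter or one of 5 FPKM, 3 rescalings, status OK only, and leaving out genes listed at 0, genes of chromosome 10 or IFITM2. A filter on the control alone and leaving out IFIT1 to IFIT3 were chosen after seeing the data. Of 248 values of single genes under a pseudocount of 0.1 or a rescaling, 0 changed sign. Of these values 7 were counted as moved, all with the smaller pseudocount: those of DHX58, GBP1, GBP2, HERC5, IFI44, IFNLR1 and OASL. Each became larger in size, for example IFI44 from 0.90 to 2.30 and OASL from 1.71 to 2.20. Differences with a pseudocount are not on the scale of the ratio intervals given above, which have none. The rescalings moved the median of all genes by at most 0.013. Depth limits the weakly expressed genes. For an assumed 1 kb of transcript, the ratio intervals of USP18, BST2 and MX1, all below 2 FPKM, include 1. The interval of ISG20 does too.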
